A study of Mus musculus with 6 samples.

Results

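The genes *Ighg1*, *Ighg2b*, *Ighg2c* and *Ighg3* encode the constant regions of the 4 IgG heavy chains of C57BL/6 mice. They were chosen by name and make up 4 of the 20076 genes with a deposited value in each of 6 tumors. Bulk RNA came from 3 primary tumors of wild-type (WT) hosts and 3 of hosts without *Tgm2* (knockout), 6 weeks after ID8 Trp53-/- Brca1-/- cells had been placed under the ovarian bursa by injection. WT hosts were C57BL/6 mice, and knockout hosts lacked *Tgm2*, the gene of transglutaminase 2. The strain on which the knockout was bred is not given in the sources used here. The labels give no ages, and the methods of the study state 1 age range for all of its experimental mice. Both groups received the same cancer cells, an ID8 mouse ovarian cancer line in which *Trp53* and *Brca1* had been disrupted with CRISPR-Cas9. The knockout belongs to the host alone, and no change to *Tgm2* is stated for the cancer cells. The comparison addresses which transcripts of the tumor differ when the host lacks transglutaminase 2. The labels number the tumors within a group without saying which came from separate mice, so the p-values measure the spread between these tumors.

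An antibody heavy chain is made from a variable region joined to a constant region, and the constant region sets the class. A B cell first makes IgM, and class switch recombination replaces the *Ighm* constant gene with a downstream gene of the same locus. Signals from T cells and cytokines bear on which gene is used: interleukin 4 is known for IgG1 and IgE, interferon gamma for IgG2c, TGF-β for IgG2b and IgA, and T-independent antigens such as bacterial polysaccharides for IgG3. Plasma cells, the secreting form of B cells, hold most immunoglobulin RNA of a tissue. In bulk RNA, more plasma cells and more RNA per cell cannot be told apart.

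The 4 genes lie on the minus strand of chromosome 12 of GRCm38. In the order in which they are transcribed along the locus, *Ighg3* spans chr12:113356224-113361232, *Ighg1* spans chr12:113325240-113330523, *Ighg2b* spans chr12:113302965-113307933 and *Ighg2c* spans chr12:113285325-113288932. GENCODE M21 gives each gene 2 transcripts, a short one of 4 exons that encodes the secreted chain and a long one of 6 exons that adds the membrane exons. Exon 2 of each gene is the hinge, the flexible stretch that links the antigen-binding arms to the Fc part and carries cysteines that join the 2 heavy chains. The hinge exons are shown because they are less alike between the genes than the transcripts as a whole. They are written 5′ to 3′ on the coding strand, with in-frame cysteine codons in capitals.
Ighg3 (chr12:113360529-113360576): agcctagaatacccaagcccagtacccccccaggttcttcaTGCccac
Ighg1 (chr12:113329844-113329882): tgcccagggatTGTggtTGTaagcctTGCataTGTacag
Ighg2b (chr12:113307261-113307326): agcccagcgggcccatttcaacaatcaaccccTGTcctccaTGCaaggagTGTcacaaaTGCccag
Ighg2c (chr12:113288263-113288325): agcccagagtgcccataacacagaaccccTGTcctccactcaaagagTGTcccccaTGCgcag
The *Ighg3* hinge of 48 bases holds 1 whole cysteine codon, that of *Ighg1* (39 bases) and that of *Ighg2b* (66 bases) hold 4, and that of *Ighg2c* (63 bases) holds 3.

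These sequences also show how well reads tell the genes apart. The hinges of *Ighg2b* and *Ighg2c* were identical at 77.3% of aligned positions, and the other pairs of hinges at 38.8% to 55.6%. Over the whole short transcript, *Ighg2b* and *Ighg2c* were 86.2% identical, and the other pairs 72.2% to 74.5%. Of the stretches of 31 bases in each gene's transcripts, the share also found in another of the 4 genes was 15.0% for *Ighg2c*, 9.29% for *Ighg2b*, 3.63% for *Ighg3* and 1.72% for *Ighg1*. No other gene of the annotation held any of these stretches. Reads from the shared stretches were divided between genes by the authors' quantification, so a low value beside a much higher one, such as *Ighg3* in the knockout tumors, is uncertain by the reads that were assigned across.

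The table is labelled TPM, but its columns summed to 34801694, 35325875 and 33916288 for the WT tumors, against 32316613, 35827822 and 37717165 for the knockout tumors, always given in the order of tumors 1, 2 and 3. The values were therefore taken as normalized counts. The steps between low values put 1 read at 0.944 to 1.09 normalized counts, which gives an estimated 33.4M to 36.9M reads per tumor. *Tgm2* itself had 14978, 12155 and 13180 normalized counts in the WT tumors, against 5853, 6071 and 8157 in the knockout tumors. The highest knockout tumor lay below the lowest WT tumor, in the direction of the host labels (limma, log2 fold change -1.02, standard error 0.22, adjusted p = 0.391). The labels name the cell type as cancer cells, and the tumors held epithelial tumor markers: *Wt1*, the most abundant of them, had 19280, 16451 and 13131 normalized counts in the WT tumors, against 17196, 14803 and 20641 in the knockout tumors. They also held immunoglobulin transcripts, which belong to B lineage cells, so the libraries were treated as whole tumor tissue. WT tumor 3 stood apart from the other WT tumors for *Ighg3* and *Ighg1*.

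*Ighg1*, *Ighg2b* and *Ighg2c* were higher in every knockout tumor than in any WT tumor, and *Ighg3* was not. *Ighg3* made up between 18.2% and 53.5% of the summed IgG counts in WT tumors and less than 1% in each knockout tumor. All 4 genes passed the filter on low values (at least 1 normalized count in at least 3 tumors) and were compared with limma on log2(value + 1), with adjustment over 19667 genes. A gene was called when its adjusted p was under 0.05 and its log2 fold change over 1 in size. *Ighg2b* and *Ighg2c* were called higher, so 2 of the 4 genes passed, against 0.102% of all tested genes called higher and 0% called lower. The counts over all genes were 20 higher and 0 lower, and at an unadjusted p under 0.05 with the same fold limit they were 491 higher and 305 lower. With no fold limit, 3.4% of all tested genes had an unadjusted p under 0.05 and were higher, and 2.38% were lower. The groups did not overlap, with the knockout tumors higher, for 3 of the 4 genes and for 5.18% of all tested genes, and with the knockout tumors lower for 0 of the 4 and for 5.33%. The median log2 fold change was 4.68 over the 4 genes and -0.03 over all tested genes.

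**Figure D1:**
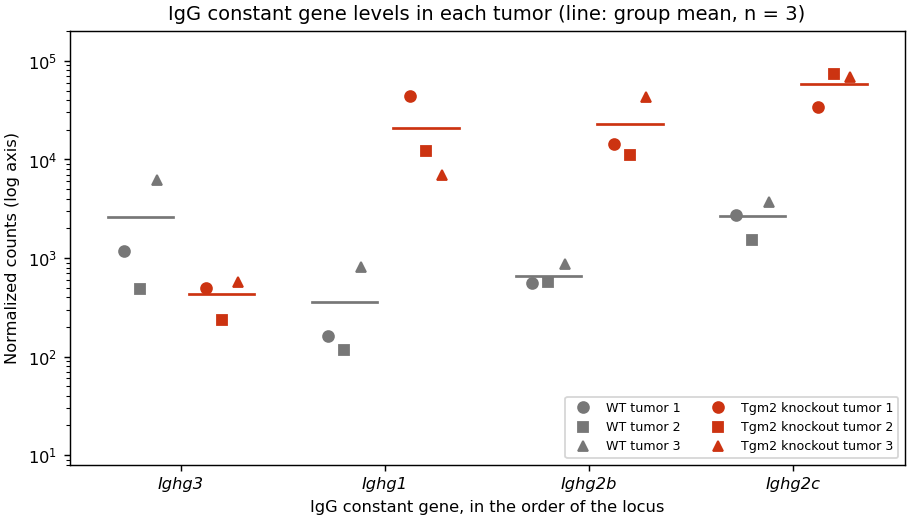
Normalized counts (log axis) of the 4 IgG constant genes in each WT (grey) and *Tgm2* knockout (red) tumor, with a line at each group mean (n = 3). The groups are apart for *Ighg1*, *Ighg2b* and *Ighg2c*, and they overlap for *Ighg3*, where WT tumor 3 stands at 6155.

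*Ighg2c* encodes the chain of IgG2c, a subclass that binds activating Fc receptors and fixes complement. It had 2738, 1507 and 3682 normalized counts in the WT tumors, against 34177, 73174 and 68331 in the knockout tumors. The lowest knockout tumor thus lay far above the highest WT tumor. The log2 fold change was 4.49 (standard error 0.40, 95% confidence interval 3.56 to 5.41, adjusted p = 0.00763 from limma), and the ratio of the group means was 22.2. The call was lost without WT tumor 1 (adjusted p = 0.0582 from limma) and without WT tumor 2 (adjusted p = 0.0667 from limma), with log2 fold changes of 4.13 to 4.83 over the fits that each left out 1 tumor. It was also lost without the trend of variance on mean (adjusted p = 0.0735 from limma), and the adjusted p ranged from 0.00209 to 0.127 over the 16 alternative fits.

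*Ighg2b* encodes the chain of IgG2b, the subclass closest to IgG2c in sequence. It had 553, 567 and 867 normalized counts in the WT tumors, against 14248, 11181 and 42550 in the knockout tumors. The WT tumors were close to each other, and knockout tumor 3 was the highest of the knockout tumors. The log2 fold change was 4.87 (standard error 0.46, 95% confidence interval 3.80 to 5.93, adjusted p = 0.0104 from limma), and the ratio of the means was 34.2, or 19.2 without knockout tumor 3. As for *Ighg2c*, the call was lost without WT tumor 1 (adjusted p = 0.0720 from limma) and without WT tumor 2 (adjusted p = 0.0955 from limma), and also without the variance trend (adjusted p = 0.0830 from limma). Over the 16 alternative fits the adjusted p from limma ranged from 0.00356 to 0.0955.

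*Ighg1* encodes the chain of IgG1, the subclass known for responses helped by interleukin 4. Its normalized counts were 161, 115 and 806 in the WT tumors, against 43621, 12130 and 6936 in the knockout tumors. The groups did not overlap, but both were spread widely, with knockout tumor 1 the highest and WT tumor 3 the highest of its group. The log2 fold change of 5.96 was the largest of the 4 genes, with a standard error of 0.82 (95% confidence interval 4.08 to 7.84), and it did not pass adjustment (adjusted p = 0.0657 from limma). It passed without WT tumor 3, at a log2 fold change of 6.81 (limma, adjusted p = 0.0348), and with array weights (limma, adjusted p = 0.0294), and in none of the other 14 alternative fits. Over all 16, the adjusted p from limma ranged from 0.0294 to 0.540, and the log2 fold change was lowest without knockout tumor 1, at 5.21. By size of log2 fold change among the 19667 tested genes, *Ighg1* ranked 10, *Ighg2b* ranked 23 and *Ighg2c* ranked 34 from the top. In two-sided exact permutation tests on the 6 log2 values of each, *Ighg1*, *Ighg2b* and *Ighg2c* all gave p = 0.1, the smallest that 3 tumors against 3 allow.

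*Ighg3* encodes the chain of IgG3, a subclass known for responses to polysaccharides. It had 1192, 488 and 6155 normalized counts in the WT tumors, against 497, 234 and 569 in the knockout tumors. WT tumor 2 lay within the range of the knockout tumors, so the groups overlapped. The log2 fold change was -1.92 (standard error 0.81, 95% confidence interval -3.78 to -0.06, adjusted p = 0.845 from limma), and the two-sided exact permutation test gave p = 0.3. Without WT tumor 3 the log2 fold change was -0.91. Neither fit shows that *Ighg3* differed or that it stayed level.

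**Figure D2:**
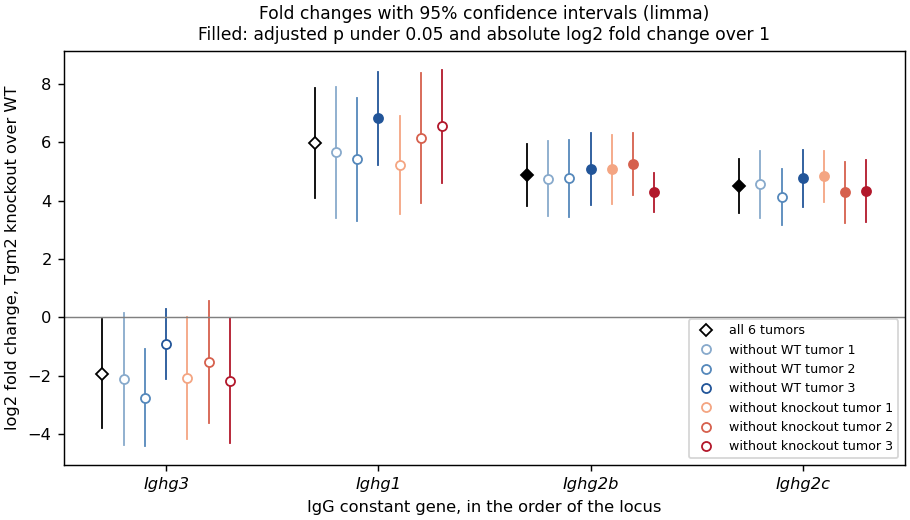
Fold changes (log2, *Tgm2* knockout over WT) of the 4 genes from limma with 95% confidence intervals, for all 6 tumors (black) and with each tumor left out (blue for WT, red for knockout), filled where the gene was called. *Ighg2b* and *Ighg2c* are filled with all 6 tumors, *Ighg1* only without WT tumor 3, and *Ighg3* in none of these fits.

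The order of the 4 genes differed between the tumors. In counts, the order within WT tumor 1 was *Ighg2c*, *Ighg3*, *Ighg2b* and *Ighg1*. In WT tumor 2 it was *Ighg2c*, *Ighg2b*, *Ighg3* and *Ighg1*, with *Ighg2b* and *Ighg3* close (567 and 488), and in WT tumor 3 *Ighg3* came first. *Ighg1* was thus last in each WT tumor. In the knockout tumors *Ighg3* was last in each, and the first was *Ighg1* in tumor 1 and *Ighg2c* in tumors 2 and 3. Per kilobase of the short, secreted transcript (1076 to 1114 bases), the order was the same in each of the 6 tumors. Per kilobase of the long transcript, which is 1214 bases for *Ighg2c* and 2414 to 2566 bases for the others, *Ighg2c* came first in WT tumor 3 and in knockout tumor 1 as well.

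As a share of the summed counts of the 4 genes, *Ighg3* made up 25.7%, 18.2% and 53.5% in the WT tumors, against 0.537%, 0.241% and 0.481% in the knockout tumors. Every knockout tumor was below 1% and every WT tumor was far above it. A share also falls when the other genes rise, and the summed *Ighg1*, *Ighg2b* and *Ighg2c* had a ratio of means of 27.9. The share thus restates the levels and does not show that *Ighg3* itself was lower. The means were 32.5% ± 18.6 and 0.420% ± 0.157 (SD, n = 3), and the exact permutation test, two-sided, gave its smallest possible p of 0.1. Without WT tumor 3 the difference was -21.5 percentage points, against -32.0 with it. Per kilobase of the short transcript, the shares of *Ighg3* were 26.2%, 18.6% and 54.0% in the WT tumors, against 0.543%, 0.247% and 0.493% in the knockout tumors.

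The shares of the other genes overlapped between the groups. *Ighg2c* made up 59.0%, 56.3% and 32.0% of the summed counts in the WT tumors, against 36.9%, 75.7% and 57.7% in the knockout tumors (two-sided exact permutation test, p = 0.6). It was the largest share in 2 of 3 tumors of each group. *Ighg2b* made up 11.9%, 21.2% and 7.53% in the WT tumors, against 15.4%, 11.6% and 35.9% in the knockout tumors (two-sided exact permutation test, p = 0.6). *Ighg1* made up 3.46%, 4.31% and 7.01% in the WT tumors, against 47.1%, 12.5% and 5.86% in the knockout tumors (two-sided exact permutation test, p = 0.2). The mean difference of 16.9 percentage points for *Ighg1* was 4.27 without knockout tumor 1, so it rested largely on that tumor.

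**Figure D3:**
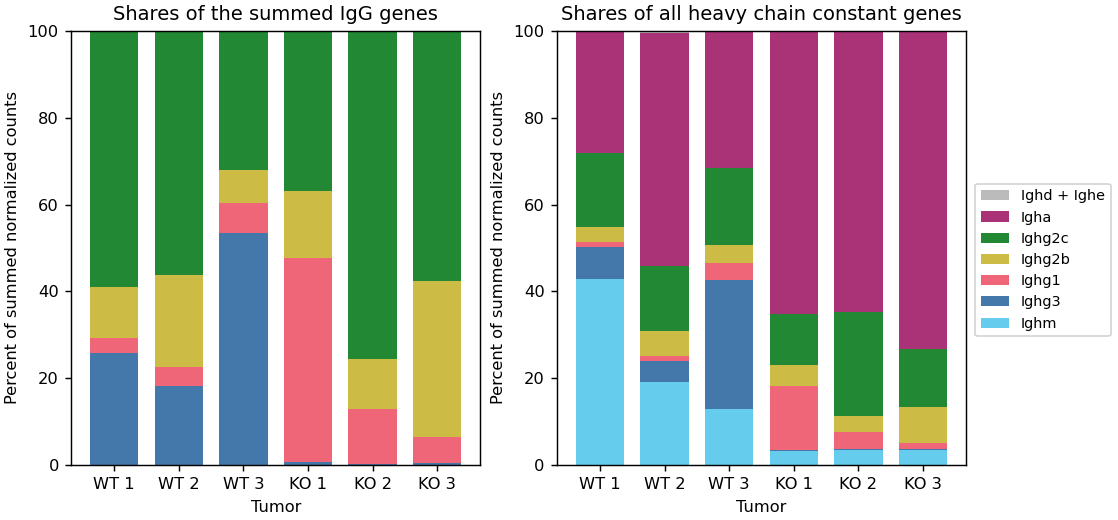
Shares of each tumor's summed normalized counts (percent), within the 4 IgG genes on the left and within all heavy chain constant genes on the right. *Ighg3* (blue) is at 18.2% to 53.5% of the IgG genes in WT tumors and under 1% in knockout tumors, where *Igha* (purple) takes 64.8% to 73.3% of all heavy chain constant genes.

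The ratio of 2 genes within a tumor stays the same only when both genes change by the same factor. The group difference of a log2 ratio equals the difference of the log2 fold changes of its 2 genes. It therefore restates the levels given above and is not separate evidence. All 6 pairs were compared by two-sided exact permutation tests, without adjustment, and none could give a p below 0.1. The log2 ratio of *Ighg2c* to *Ighg3* was 1.20, 1.63 and -0.74 in the WT tumors, against 6.10, 8.29 and 6.91 in the knockout tumors, a difference of 6.40 (exact permutation p = 0.1), or 5.68 without WT tumor 3. That of *Ighg2b* to *Ighg3* differed by 6.78 and that of *Ighg1* to *Ighg3* by 7.88, each with groups apart (exact permutation p = 0.1). Without WT tumor 3 these differences were 5.99 and 7.73. With each tumor left out in turn, they ranged from 5.68 to 6.90 for *Ighg2c*, 5.99 to 7.51 for *Ighg2b* and 7.28 to 8.70 for *Ighg1*. The 3 pairs without *Ighg3* overlapped. The log2 ratio of *Ighg2b* to *Ighg2c* was -2.31, -1.41 and -2.08 in the WT tumors, against -1.26, -2.71 and -0.68 in the knockout tumors, a difference of 0.38 (exact permutation p = 0.6). The ratio of *Ighg1* to *Ighg2b* differed by 1.09 (exact permutation p = 0.6) and that of *Ighg1* to *Ighg2c* by 1.47 (exact permutation p = 0.4), with knockout tumor 1 the highest for both. Leaving out each tumor in turn gave 0.139 to 2.25 for *Ighg1* to *Ighg2b* and 0.375 to 2.20 for *Ighg1* to *Ighg2c*. Both differences were lowest without knockout tumor 1 and highest without knockout tumor 3.

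**Figure D4:**
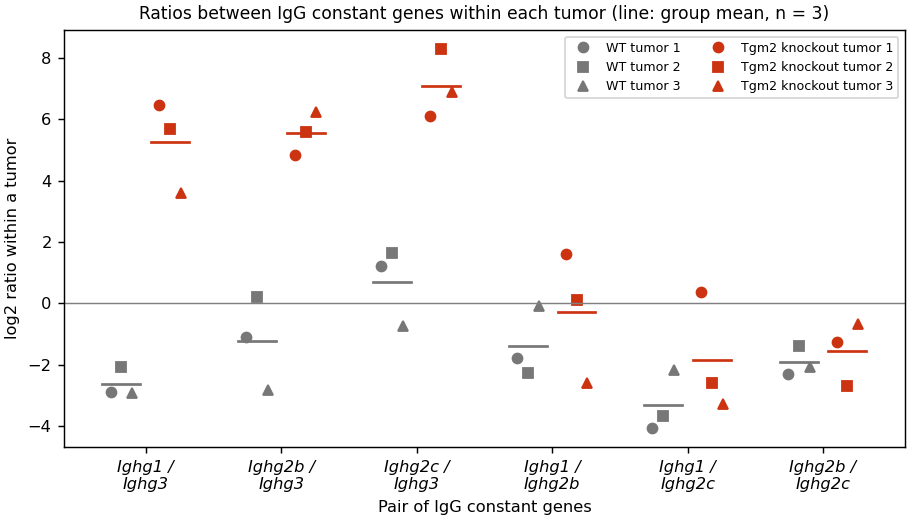
Log2 ratios of each pair of IgG genes within each tumor, WT in grey and *Tgm2* knockout in red, with a line at each group mean (n = 3). The groups are apart for the 3 pairs with *Ighg3*, by 6.40 to 7.88, and overlap for the other 3 pairs.

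Summed over the 4 genes, the tumors held 4644, 2677 and 11510 normalized counts in the WT group, against 92543, 96718 and 118386 in the knockout group. The knockout tumors were close to each other in this sum although their subclasses differed. The means were 6277 ± 4637 and 102549 ± 13873 (SD, n = 3), or 0.0183% and 0.290% of all normalized counts. The ratio of the means was 16.3, and 28.0 without WT tumor 3. Without *Ighg3* the sums were 3452, 2189 and 5355 in the WT tumors, against 92046, 96484 and 117817 in the knockout tumors, a ratio of 27.9.

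Among all heavy chain constant genes, the share of IgG overlapped between the groups, and the shares of IgM and IgA did not. IgG made up 29.0%, 26.6% and 55.6% of heavy chain constant counts in the WT tumors, against 31.4%, 31.8% and 23.2% in the knockout tumors. These ranges overlapped, and the mean difference of -8.26 percentage points became 1.0 without WT tumor 3. *Ighm*, the constant gene used before switching, named after its values were seen, made up 42.9%, 19.1% and 12.9% in the WT tumors, against 3.24%, 3.46% and 3.50% in the knockout tumors, with no overlap. *Igha*, the IgA constant gene, made up 28.1%, 53.8% and 31.3% in the WT tumors, against 65.3%, 64.8% and 73.3% in the knockout tumors, again with no overlap. These shares are of counts and were not corrected for transcript length, so they compare the tumors and not the genes.

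Of the 9 other heavy and light chain constant genes with *Jchain*, 3 were called higher (*Igha*, *Igkc* and *Jchain*) and 0 lower, 7 were apart and higher, against 0.102% called higher and 5.18% apart and higher among all tested genes, and the median log2 fold change was 3.40. *Igkc*, the kappa light chain constant gene, had 8870, 6618 and 14622 normalized counts in the WT tumors, against 129652, 151166 and 300054 in the knockout tumors. *Jchain*, whose product joins units of IgA and IgM and not of IgG, had 1461, 2231 and 2511 in the WT tumors, against 42273, 62781 and 67245 in the knockout tumors. The IgG sum stood in ratios of 0.524, 0.404 and 0.787 to *Igkc* in the WT tumors, against 0.714, 0.640 and 0.395 in the knockout tumors. These ratios to *Igkc* overlapped between the groups, and those to *Jchain* did as well. The ratios of the IgG sum to *Igha* did not overlap. They were 1.03, 0.495 and 1.78 in the WT tumors, against 0.482, 0.490 and 0.317 in the knockout tumors, with WT tumor 2 just above knockout tumor 2. *Ighm* had 6869, 1926 and 2681 normalized counts in the WT tumors, against 9546, 10525 and 17862 in the knockout tumors (log2 fold change 1.89, adjusted p = 0.542 from limma). *Ighe*, the IgE constant gene, chosen after its values were seen, was at 0, 0 and 3.10 in the WT tumors, against 138, 2.00 and 2.04 in the knockout tumors, so that knockout tumor 1 was again the highest, as for *Ighg1*.

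The genes with the most similar pattern to each IgG gene were found as the smallest mean absolute difference of centred log2 values over the 6 tumors. For *Ighg2c* they were *Igkc* (0.30), *Mzb1* (0.37), a chaperone of plasma cells, and *Pou2af1* (0.38), a B cell coactivator. For *Ighg2b* they were *Igkc* (0.38), *Igha* (0.39) and *Jchain* (0.42). Both genes were nearer to these than to each other (0.62). For *Ighg1* the nearest were *Oosp1* (0.90) and the heavy chain joining segments *Ighj3* (0.99) and *Ighj2* (0.99), so no gene came as close as for the other 3 IgG genes. *Oosp1*, which is known from oocytes, held only 0 to 102 normalized counts. For *Ighg3* the nearest were *4933428G20Rik* (0.29), *Rrh* (0.32) and *Vmn1r201* (0.33), which held 0 to 30.4 normalized counts and so rest on few reads.

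Most plasma cell markers were higher in every knockout tumor than in any WT tumor. Of 11 markers, 1 was called higher (*Mzb1*), 9 were apart and higher, and the median log2 fold change was 0.97. Among all tested genes, 0.102% were called higher, 5.18% were apart and higher, and the median was -0.03. *Mzb1* had 55.9, 67.7 and 126 normalized counts in the WT tumors, against 1195, 1437 and 2050 in the knockout tumors (log2 fold change 4.27, adjusted p = 0.00763 from limma). The IgG sum was 83.0, 39.5 and 91.6 times *Mzb1* in the WT tumors, against 77.4, 67.3 and 57.7 times in the knockout tumors, with overlap. *Txndc5* and *Xbp1*, genes of the secretory pathway that other cells also use, were the most abundant of the list, with log2 fold changes of 0.41 and 0.51. The summed list was 28526, 28988 and 19247 in the WT tumors, against 34309, 36460 and 37019 in the knockout tumors, and no marker was at 0. The part of plasma cell number in the IgG values was not tested. Of 11 B cell markers, 1 was called higher, *Cd79a* of the B cell receptor (114, 91.6 and 74.1 against 686, 593 and 1022 normalized counts, adjusted p = 0.0264 from limma), and 6 were apart and higher, against the same shares of all genes, with a median log2 fold change of 0.82. *Spib*, a transcription factor gene and the most abundant of them, had a log2 fold change of -0.67. The summed B cell list was 2013, 1223 and 1498 in the WT tumors, against 2317, 2071 and 3295 in the knockout tumors, with no overlap.

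No gene of the class switching machinery passed the test. Of 24 genes of class switch recombination, 0 were called by limma, 0 passed an unadjusted p of 0.05, and 1 was apart and higher and 1 apart and lower, with a median log2 fold change of 0.00. Of all tested genes, 0.102% were called higher and 0% lower, and 5.18% were apart and higher and 5.33% apart and lower. At an unadjusted p under 0.05, 3.4% were higher and 2.38% lower. With shares this low, counts of 0 among 24 genes do not set the list apart from all tested genes. Most act in DNA repair in every dividing cell, such as *Msh6* (log2 fold change 0.10), or in transcription, such as *Supt5* (0.00), the most abundant of the list.

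Genes that direct switching to each subclass were counted in the same way, and 0 of their lists' members were called by limma. The shares of all tested genes to set beside these counts are 0.102% called higher, 0% called lower and 5.18% apart and higher. A further 1 is 3.4% higher at an unadjusted p under 0.05 with no fold limit, as counted for the lists. With shares this low, counts of 0 in these short lists do not set them apart from all tested genes. Of the 7 genes tested for type 2 signals, linked to IgG1, 1 was apart and higher, with a median log2 fold change of -0.06, and the receptor genes *Il4ra* (-0.09) and *Il13ra1* (-0.14) were the most abundant. *Il13* was not analysed here. Of 12 genes of interferon gamma and Toll-like receptor signals, linked to IgG2c, 2 were higher at an unadjusted p of 0.05 and 2 were apart and higher, with a median of 0.27. *Jak1*, a kinase of the interferon receptors and among the most abundant of the list, stood at a log2 fold change of 0.36. The 2 genes apart, named after their values were seen, were *Ifng* and *Tbx21*. Only *Tbx21* of these was also among the 2 with an unadjusted p under 0.05. *Tbx21*, which encodes T-bet, had 39.7, 10.4 and 10.1 normalized counts in the WT tumors, against 58.8, 40.2 and 98.0 in the knockout tumors. *Ifng*, the interferon gamma gene, was low, at 3.38, 0.774 and 7.39 in the WT tumors, against 12.7, 10.2 and 12.1 in the knockout tumors.

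Of 9 genes of TGF-β signals, linked to IgG2b and IgA, 0 were apart and 0 passed an unadjusted p of 0.05, with a median log2 fold change of 0.10; the receptor gene *Tgfbr2* (0.34) and the ligand gene *Tgfb3* (0.29) were the most abundant. Of 9 genes of T-independent signals, linked to IgG3, 1 was higher at an unadjusted p of 0.05 and 1 was apart and higher, with a median of 0.16. Both counts are of *Tnfrsf13b* (log2 fold change 1.20), named after its values were seen. The NF-κB subunit gene *Nfkb1* (0.16) and *Tnfsf13* (-0.43), the gene of the survival factor APRIL, were the most abundant. Of 15 genes of germinal centres and T cell help, 4 were higher at an unadjusted p of 0.05 (3.4% of all tested genes) and 5 were apart and higher (5.18% of all tested genes), with a median of 0.88. *S1pr2* (0.06), a receptor that holds B cells in germinal centres, and *Bcl6* (0.21), their transcription factor, were the most abundant of these. *Il21*, a cytokine of helper T cells chosen after its values were seen, was at 0, 0 and 0.958 in the WT tumors, against 3.91, 7.43 and 11.2 in the knockout tumors. Also chosen after seeing its values, *Rgs13*, a germinal centre gene, had 5.71, 1.05 and 3.06 in the WT tumors, against 76.1, 7.90 and 2.12 in the knockout tumors. Knockout tumor 1 was thus the highest for *Rgs13*, *Ighe* and *Ighg1*, and a relation between them was not tested. Most genes of the germinal centre list did not follow *Rgs13* in this. Named after their values were seen, *Mybl1* and *Icosl* were also highest in knockout tumor 1, and *Cd40* in knockout tumor 2. *S1pr2* was highest in WT tumor 1. The other members were highest in knockout tumor 3, such as *Bcl6*, at 1267, 1255 and 1382 normalized counts in the knockout tumors.

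Of 7 genes of Fc gamma receptors and IgG handling, through which IgG acts on cells, 0 were called by limma, 0 passed an unadjusted p of 0.05 and 0 were apart, with a median log2 fold change of 0.30. The shares over all tested genes were 0.102% called higher and 0% called lower. At an unadjusted p under 0.05 they were 3.4% higher and 2.38% lower, and 5.18% were apart and higher and 5.33% apart and lower. At such low shares, counts of 0 among 7 genes do not set this list apart from all tested genes. *Fcgr3*, an activating receptor, had 3669, 3077 and 2309 normalized counts in the WT tumors, against 1692, 5393 and 3625 in the knockout tumors. *Fcgrt*, which encodes the receptor that protects IgG from breakdown, had a log2 fold change of 0.46. All 7 thus overlapped between the groups.

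**Figure D5:**
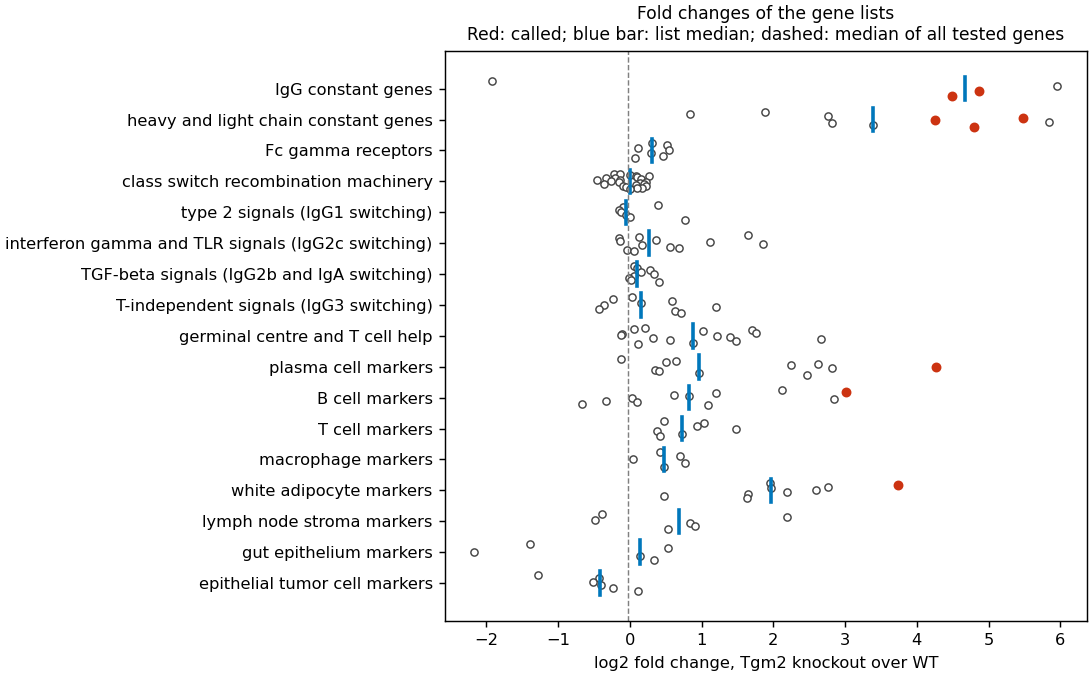
Log2 fold changes (*Tgm2* knockout over WT) of the 4 IgG genes and of each tested gene of the lists, with called genes in red, list medians as blue bars and the median of all tested genes, -0.03, as a dashed line. The IgG genes and the other constant genes reach beyond 4, while the median of the switching machinery lies at 0.00.

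Markers of other cell types were counted beside the IgG genes, and the part of these cells in the IgG values was not tested. Of 9 white adipocyte markers, 1 was called higher (*Lep*, leptin), 8 were higher at an unadjusted p of 0.05 and 4 were apart and higher, with a median log2 fold change of 1.97. Among all tested genes these shares were 0.102%, 3.4% and 5.18%. Their sum, led by the lipoprotein lipase gene *Lpl* (log2 fold change 0.48) and the adipsin gene *Cfd* (1.65), was 39550, 53261 and 28425 in the WT tumors, against 43275, 159721 and 92166 in the knockout tumors, and no marker was at 0. In this sum knockout tumor 1 lay within the range of the WT tumors. Of 7 T cell markers, 0 were called by limma, 2 were higher at an unadjusted p of 0.05 and 3 were apart and higher, with a median of 0.73, against 3.4% and 5.18% of all tested genes. Their sum was 1783, 1188 and 1087 in the WT tumors, against 1887, 2021 and 3300 in the knockout tumors, led by the T cell receptor gene *Trac* (0.73) and the coreceptor gene *Cd4* (1.49).

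No marker of the remaining lists was called by limma. Of all tested genes, 0.102% were called higher and 0% lower, 5.18% were apart and higher, and 5.33% were apart and lower. At such low shares, counts of 0 in these short lists do not set them apart from all tested genes. Of 6 epithelial tumor cell markers, 0 were called by limma and 2 were apart and lower, against 5.33% of all tested genes, with a median log2 fold change of -0.42. The most abundant of them were *Wt1* (0.11) and *Krt8* (-0.43). Their sum was 64164, 72840 and 65057 in the WT tumors, against 51426, 53240 and 61055 in the knockout tumors, with no marker at 0. Of 5 macrophage markers, 0 were called by limma and 0 were apart, with a median of 0.48, led by the complement gene *C1qa* (0.48) and the growth factor receptor gene *Csf1r* (0.71). Of 6 markers of lymph node stroma, 0 were called by limma and 1 was apart and higher, against 5.18% of all tested genes, with a median of 0.69, and the chemokine gene *Ccl21a* (-0.49) and the lymphotoxin gene *Ltb* (0.54) were the most abundant. Their sum was 3374, 1751 and 2854 in the WT tumors, against 3248, 2051 and 1726 in the knockout tumors. Of 8 markers of gut epithelium, 5 were tested, 0 were called by limma and 0 were apart, with a median of 0.14, led by *Lgr5* (0.54) and *Vil1* (-1.39). *Alpi*, *Cdx1* and *Cdx2* were not analysed here, and *Fabp2* was at 0 in WT tumor 3.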

How the data were processed

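Polyadenylated RNA of the tumors was sequenced in pairs of reads. Per the labels and the study's methods, the authors quantified transcripts with kallisto (version 0.46.2 and build GRCm38 in the submitters' processing notes), summed them to genes with biomaRt, removed genes with low expression and scaled them with size factors of DESeq2. The authors deposited this signal, which is normalized counts, in a table labelled TPM, the unit assumed when tests were chosen. Limma 3.58.1 in R 4.3.3 was kept, with a trend of variance on mean, no covariate, all 6 tumors and Benjamini-Hochberg adjustment over 19667 genes. Read strand is not stated, and 0 columns were left unused. A pseudocount of 1 was added, which understates changes of low genes. Exact permutation tests were run in Python 3.11.15. Fits were tested on simulated data. Replicate numbers were not used as pairs. Sequences and positions come from GENCODE M21.

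The 4 genes, the lists and the tests were chosen with earlier results of these data known. Named genes are the 4 IgG genes, *Tgm2*, the 3 nearest in pattern to each IgG gene, and of each list the 2 most abundant members and those called, besides genes said to be chosen after seeing their values; 1 gene that this rule names is not reported here. Alternatives changed the pseudocount, filter, scaling, weights, variance trend and block, and left out each tumor.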

Additional observations from a re-analysis of the deposited data

How the results depend on the processing

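The 4 fold changes kept their direction in each of the 16 alternative fits. The number of genes called was 20, and it was 5 with replicate numbers as a block, 4 without the variance trend, and 2 to 14 when 1 tumor was left out. Under the block, the call of *Ighg2c* was lost (log2 fold change 4.49, adjusted p = 0.127 from limma) and that of *Ighg2b* was kept (adjusted p = 0.0438 from limma). Tumors with the same number did not deviate together over all tested genes (correlations of -0.20, 0.28 and -0.31), so the numbers were not shown to be pairs. Without the variance trend, *Ighg2c* (4.49, adjusted p = 0.0735 from limma) and *Ighg2b* (4.87, adjusted p = 0.0830 from limma) were not called. With array weights *Ighg1* was called (6.16, adjusted p = 0.0294 from limma). The cause of these changes was not tested.

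With 1 tumor left out, the log2 fold changes ranged from 5.21 to 6.81 for *Ighg1*, 4.28 to 5.25 for *Ighg2b*, 4.13 to 4.83 for *Ighg2c* and -2.74 to -0.91 for *Ighg3*. The difference in share of summed IgG ranged from -39.1 to -21.5 percentage points for *Ighg3* and from 4.27 to 24.9 for *Ighg1*. It changed sign for *Ighg2b* without knockout tumor 3 (-0.0606, range to 12.1) and for *Ighg2c* without WT tumor 3 (-0.86) and without knockout tumor 2 (-1.76, range to 17.6). The log2 ratio of *Ighg2b* to *Ighg2c* changed sign without knockout tumor 3 (-0.0528, range to 0.96). The IgG share of heavy chain counts ranged from -13.5 to 1.0 points, the latter without WT tumor 3. With 3 tumors a group and a few reads behind values such as those of *Ifng*, small differences were not detectable.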
